A study of Mus musculus with 16 samples.

Results

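The mitochondrial carrier family (Slc25a) and the uncoupling proteins Ucp1, Ucp2 and Ucp3 were examined in mouse left ventricle. Members were all rows of the count table whose gene symbol was Slc25a followed by a number, plus the 3 Ucp genes, a rule that reads names and no measured value. This gave 50 members, 47 Slc25a genes and 3 Ucp genes, of 57186 gene IDs in the table, 51880 of which had a symbol. The choice of this family, and of the lists of other genes used below, was made with earlier results of these data known. The 16 libraries formed 4 groups of 4 biological replicates: cKO TAC, WT TAC, cKO sham and WT sham. The cKO mice lacked Tfeb, a transcription factor of lysosomal and autophagy genes, in cardiomyocytes, and the WT mice were the controls; the strain label of every sample was C57/BL6N. TAC (transverse aortic constriction) is a banding of the aortic arch that makes the left ventricle pump against a higher pressure, and sham is the operation without the band. The driver of the deletion, the time after surgery and the age of the mice are not given in the sources used here. RNA came from whole left ventricular tissue, which holds fibroblasts, endothelial cells and immune cells beside cardiomyocytes.

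Carriers of this family are small proteins of the mitochondrial inner membrane that exchange metabolites between the matrix and the cytosol. In the heart they hand ATP out against ADP, bring in phosphate, move acylcarnitines into the matrix for fatty acid oxidation, carry reducing equivalents through the malate-aspartate shuttle, and supply cofactors that are made or taken up outside the matrix. Uncoupling proteins belong to the same family: Ucp1 carries the proton leak that makes heat in brown fat, while Ucp3 is a protein of skeletal and cardiac muscle that follows fatty acid supply, and Ucp2 is found in many tissues and in immune cells.

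Library totals lay between 12946878 and 16347388 counts, and the members together took 80642 to 139366 counts of a library. Levels are given as CPM, a gene's counts relative to the counts of its library after edgeR's TMM scaling, and per kb of exon where genes are compared with each other. Tfeb itself averaged 12.7 ± 2.34 CPM in cKO TAC and 29.1 ± 9.77 in WT TAC, and 10.5 ± 1.74 in cKO sham and 36.5 ± 3.94 in WT sham libraries (SD, n = 4 each), and cKO and WT libraries did not overlap within either surgery. All 8 cardiomyocyte markers looked at were detected, which matches the labelled tissue, and their summed level was 41070 to 56920 CPM in cKO TAC, 52620 to 62680 in WT TAC, 60390 to 70700 in cKO sham and 63260 to 70890 in WT sham libraries. The atrial transcripts Myl7, Myl4, Sln and Bmp10 summed to at most 22.8 CPM in every cKO library, and to 2.06, 3.36, 18.3 and 797.3 CPM in WT TAC and, in WT sham libraries, to 5.74 CPM in replicate 1, 2392 CPM in replicate 3, 130.6 CPM in replicate 4 and a value between the last 2 in replicate 2. The pair with the highest values, WT TAC replicate 4 and WT sham replicate 3, was left out in an alternative, while WT sham replicates 2 and 4, which also stood above the cKO libraries, were kept.

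Of the 50 members, 41 passed the expression filter and were tested. Slc25a54 and Ucp1 had 0 counts in all 16 libraries, which allows a level of up to 0.0127 CPM over all of them (3 counts of the summed total; counting error only). Slc25a2, Slc25a18, Slc25a21, Slc25a31, Slc25a41, Slc25a43 and Slc25a48 had at most 15 counts in any library and were not tested. Slc25a31 is the ADP/ATP carrier of the male germ line, and Ucp1 has its known home in brown fat.

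Slc25a4, the ADP/ATP carrier of heart and skeletal muscle, dominated the family. It reached 2256 ± 77.9 CPM per kb in WT sham libraries (SD, n = 4), against 263 ± 25.9 for Slc25a3, the phosphate carrier, which was second, and it did not overlap with any other member. Slc25a11, which exchanges malate for 2-oxoglutarate in the malate-aspartate shuttle, followed at 240 ± 27.3 and overlapped with Slc25a3. Slc25a5, the ADP/ATP carrier of most other tissues, had rank 4 at 134 ± 9.78 CPM per kb. Slc25a34, a carrier without a settled substrate, had rank 5 at 62.3 ± 4.09 and overlapped with Slc25a39, a carrier needed for mitochondrial glutathione, at 52.4 ± 15.3. The aspartate-glutamate carriers Slc25a13 and Slc25a12 and the carnitine-acylcarnitine carrier Slc25a20 formed the next group, at 32.9 ± 5.58, 32.3 ± 0.757 and 31.4 ± 1.89 CPM per kb, and their libraries overlapped. From Slc25a42 down to Slc25a38, ranks 10 to 19, every neighbour in the order overlapped with the next. Slc25a53, a little-studied member, was lowest of those tested at 0.183 ± 0.0665 CPM per kb.

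**Figure D1:**
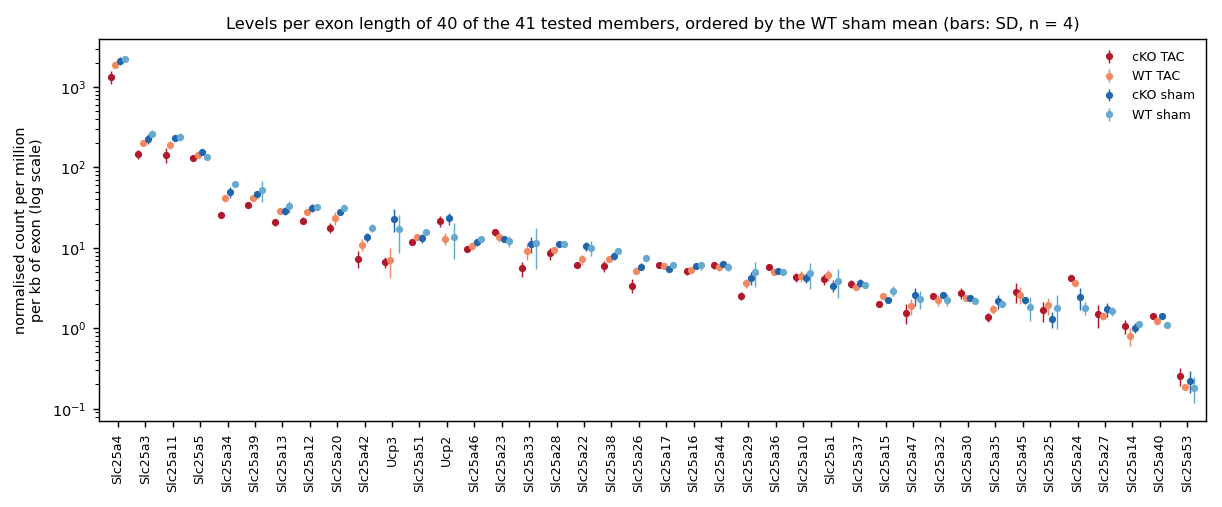
Mean level of 40 of the 41 tested members in CPM per kb of exon (log axis), ordered by the WT sham mean; points are the means of cKO TAC, WT TAC, cKO sham and WT sham libraries and bars the SD (n = 4). Slc25a4 lies at 2256 CPM per kb in WT sham, apart from Slc25a3 at 263, and the cKO TAC point is the lowest of the 4 for most of the abundant members.

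The summed level of all members was 2033 ± 312 CPM per kb in cKO TAC and 3140 ± 313 in cKO sham libraries, and 2758 ± 232 in WT TAC and 3309 ± 142 in WT sham libraries (SD, n = 4). Within each genotype the TAC libraries lay below all sham libraries, with 1767 to 2482 in cKO TAC against 2756 to 3498 in cKO sham, and 2543 to 2965 in WT TAC against 3131 to 3479 in WT sham. Slc25a4 alone made up 64.9% ± 1.69 of this sum in cKO TAC and 67.8% ± 0.958 in cKO sham libraries, and 68.4% ± 1.42 in WT TAC and 68.2% ± 1.12 in WT sham libraries. Without Slc25a4, Slc25a3 and Slc25a5 the sum was 398 to 496 CPM per kb in cKO TAC and 577 to 667 in cKO sham libraries, so the lower level was not that of the ADP/ATP and phosphate carriers alone. These sums describe the libraries and carry no test.

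The response to pressure overload without Tfeb was read from the cKO mice. In cKO TAC against cKO sham ventricles, 21 of the 41 tested members changed (51.2%), 20 of them lower and 1, Slc25a24, higher, where 26.5% of all 15206 tested genes changed (edgeR's quasi-likelihood test, Benjamini-Hochberg adjusted p under 0.05). Over all genes the calls were split more evenly, with 12.4% lower and 14.2% higher. Scaling the libraries to cardiomyocyte markers, described further on, turned the members' split to 8 lower and 14 higher. Of all tested genes 2.24% were lower and 49.2% higher under that scaling. In 20 members the cKO TAC and cKO sham libraries did not overlap, 19 lower and 1 higher, where this held for 29.3% of all genes (13.8% lower and 15.5% higher). The median log2 fold change of the members was -0.24, beside 0.00 over all tested genes, and 30 of the 41 values lay below 0. Beside these calls, mitochondrially encoded transcripts took 16.1% to 20.4% of the counts in cKO TAC and 21.9% to 24.1% in cKO sham libraries, and their part was not tested. Each of the 8 role groups held members that fell: 2 of 6 tested carriers of adenine nucleotides and phosphate, 2 of 3 of the fatty acid and carnitine group, 1 of 3 di- and tricarboxylate carriers, 5 of 7 amino acid carriers, 4 of 9 nucleotide and cofactor carriers, 2 of 4 glutathione and iron carriers, 1 of 5 in the uncoupling group, and 3 of 4 in the group of outer membrane members and members without a settled substrate.

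The ADP/ATP and phosphate carriers, which feed ATP synthase and empty the matrix of its product, fell at the top of the abundance scale. Slc25a4 had 2617, 3039, 3916 and 2888 CPM in cKO TAC libraries, against 5218, 4317, 5661 and 4870 CPM in cKO sham libraries. Every TAC library was below every sham library, and the log2 fold change was -0.69 (SE 0.12, adjusted p = 0.000715, edgeR). Slc25a3 had 733, 793, 972 and 762.5 CPM in cKO TAC libraries, against 1356, 1038, 1421 and 1212 CPM in cKO sham libraries, again with no overlap. Its log2 fold change was -0.62 (SE 0.12, adjusted p = 0.00111). Slc25a5 had 205, 213, 242 and 199 CPM in cKO TAC libraries and 249.5, 258, 279 and 227 CPM in cKO sham libraries, groups that overlapped (log2 fold change -0.24, SE 0.09, adjusted p = 0.0525). Its reads may be shared with processed copies of the gene, and how such reads were counted is not given in the sources used here. Slc25a4 accordingly made up 89.9% to 91.9% of the pair's summed level per kb in cKO TAC libraries and 92.1% to 93.8% in cKO sham libraries; WT TAC libraries had 92.4% to 93.9% and WT sham libraries 93.6% to 94.9%.

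The calcium-regulated ATP-Mg/phosphate carriers did not share this direction. Slc25a24 had 15.6, 13.7, 13.3 and 15.0 CPM in cKO TAC libraries, against 9.00, 11.5, 6.33 and 6.43 CPM in cKO sham libraries. All TAC libraries were higher, with a log2 fold change of 0.79 (SE 0.17, adjusted p = 0.00231). Slc25a23 and Slc25a25, the related forms, had log2 fold changes of 0.28 and 0.36 with adjusted p-values of 0.0965 and 0.411. Beside the Slc25a24 values, the 7 fibroblast markers summed to 2643 to 5445 CPM in cKO TAC and 830.5 to 1394 CPM in cKO sham libraries, with 6 of the 7 higher by the same test. The part of these cells in the Slc25a24 difference was not tested.

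Among the carriers of fuel and shuttle metabolites, Slc25a20, which brings acylcarnitines into the matrix, had 75.5, 80.1, 103.5 and 86.0 CPM in cKO TAC libraries, against 129.5, 145, 133 and 132 CPM in cKO sham libraries. The groups were apart, and the log2 fold change was -0.65 (SE 0.12, adjusted p = 0.000706). Slc25a47, of the same group and far less abundant, fell as well (log2 fold change -0.72, adjusted p = 0.029), while Slc25a45 did not pass the test at 0.35. Slc25a11, the 2-oxoglutarate arm of the malate-aspartate shuttle, had 250.3, 287, 395 and 282 CPM in cKO TAC libraries, against 519, 439.9, 539 and 469.8 CPM in cKO sham libraries. It fell with a log2 fold change of -0.70 (SE 0.13, adjusted p = 0.00101). Slc25a12, its aspartate-glutamate partner in the shuttle, had 144, 157, 183 and 157 CPM in cKO TAC libraries, against 262, 197.5, 233 and 235 CPM in cKO sham libraries. It was also lower in every TAC library (log2 fold change -0.54, SE 0.10, adjusted p = 0.000622). Slc25a13, the second aspartate-glutamate carrier, had 78.5, 73.8, 91.5 and 74.7 CPM in cKO TAC libraries, against 122, 100.2, 99.9 and 117 CPM in cKO sham libraries (log2 fold change -0.46, SE 0.11, adjusted p = 0.00566). In all 3 shuttle carriers the groups did not overlap. Scaled to cardiomyocyte markers, Slc25a12 and Slc25a13 no longer passed, at -0.11 (adjusted p = 0.332) and -0.034 (adjusted p = 0.838), and Slc25a13 did not pass with library totals either (-0.27, adjusted p = 0.0523). The citrate carrier Slc25a1 and the dicarboxylate carrier Slc25a10 had log2 fold changes of 0.29 and 0.04, neither past the threshold.

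Slc25a22, a glutamate carrier, had 34.5, 40.4, 38.8 and 33.2 CPM in cKO TAC libraries, against 53.0, 60.6, 68.4 and 68.0 CPM in cKO sham libraries. The groups were apart, with a log2 fold change of -0.77 (SE 0.13, adjusted p = 0.000553). The basic amino acid carrier Slc25a29 and the glycine carrier Slc25a38, whose glycine feeds haem synthesis, fell by 0.73 and 0.44 on the log2 scale (adjusted p = 0.0107 and 0.00755). The ornithine carrier Slc25a15 and the branched-chain amino acid carrier Slc25a44 had values of -0.14 and -0.04 and did not pass.

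Cofactor carriers held several of the largest differences. Slc25a42, which imports coenzyme A, had 35.1, 35.2, 55.9 and 48.7 CPM in cKO TAC libraries, against 87.6, 69.4, 77.9 and 90.1 CPM in cKO sham libraries (log2 fold change -0.89, SE 0.15, adjusted p = 0.000542). Slc25a26, which imports the methyl donor S-adenosylmethionine, had 13.9, 13.6, 20.6 and 16.9 CPM in cKO TAC libraries, against 25.4, 26.0, 31.0 and 29.6 CPM in cKO sham libraries (log2 fold change -0.78, SE 0.13, adjusted p = 0.000284). In both genes each TAC library was below each sham library. Slc25a33, a pyrimidine nucleotide carrier of mitochondrial DNA upkeep, had 7.70, 9.85, 12.6 and 11.9 CPM in cKO TAC libraries, against 20.5, 19.5, 16.45 and 28.0 CPM in cKO sham libraries (log2 fold change -1.01, SE 0.31, adjusted p = 0.0262). Its close relative Slc25a36 had a value of 0.19 (adjusted p = 0.0654), so that Slc25a33 made up 41.3% to 52.1% of the pair per kb in cKO TAC and 64.0% to 73.0% in cKO sham libraries. An antisense gene covers 14.9% of the Slc25a33 exons, and the strand setting of the counting is not given, so reads of the pair cannot be told apart. The Slc25a33 call was lost when cKO TAC replicate 1 or 2 or cKO sham replicate 1 or 4 was left out (adjusted p up to 0.0851). Slc25a32, the folate and FAD carrier, had 14.1 to 16.7 CPM in cKO TAC and 14.7 to 17.02 CPM in cKO sham libraries (log2 fold change -0.02, adjusted p = 0.919).

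Slc25a34 had the smallest adjusted p-value of the family. It had 67.8, 64.8, 76.2 and 67.9 CPM in cKO TAC libraries, against 104, 127, 151 and 143 CPM in cKO sham libraries. The lowest sham library stood well clear of the highest TAC library, and the log2 fold change was -0.92 (SE 0.11, adjusted p = 2.74e-05). Slc25a35, likewise without a settled substrate, fell by 0.66 on the log2 scale (adjusted p = 0.00648), although exons of Rangrf on the other strand cover 31.3% of its own. Slc25a46, an outer membrane protein of mitochondrial fission, fell by 0.27 (adjusted p = 0.031), and the mitoferrin Slc25a28 and the glutathione carrier Slc25a39 fell by 0.39 and 0.42 (adjusted p = 0.0102 and 0.0398), although scaled to cardiomyocyte markers all 3 stood above 0, at 0.16, 0.029 and 0.015 without passing. Leaving out a single library ended the call of Slc25a39 (cKO TAC replicate 1, 2 or 4 or cKO sham replicate 1, 3 or 4, adjusted p up to 0.125), Slc25a46 (cKO TAC replicate 1, 2 or 4 or cKO sham replicate 3, up to 0.12) and Slc25a47 (cKO TAC replicate 1 or 4 or cKO sham replicate 1 or 3, up to 0.116).

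Of the uncoupling proteins, Ucp3 had 16.5, 21.03, 23.3 and 23.7 CPM in cKO TAC libraries, against 39.9, 70.4, 89.9 and 87.8 CPM in cKO sham libraries. The groups did not overlap, and the log2 fold change of -1.77 (SE 0.36, adjusted p = 0.00315) was the lowest of all members. Ucp2 had 181, 158, 134 and 129 CPM in cKO TAC libraries and 198, 133, 159.7 and 161 CPM in cKO sham libraries, which overlapped (log2 fold change -0.12, SE 0.27, adjusted p = 0.794). The lesser-known relatives Slc25a27, Slc25a14 and Slc25a30 did not pass the test either.

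**Figure D2:**
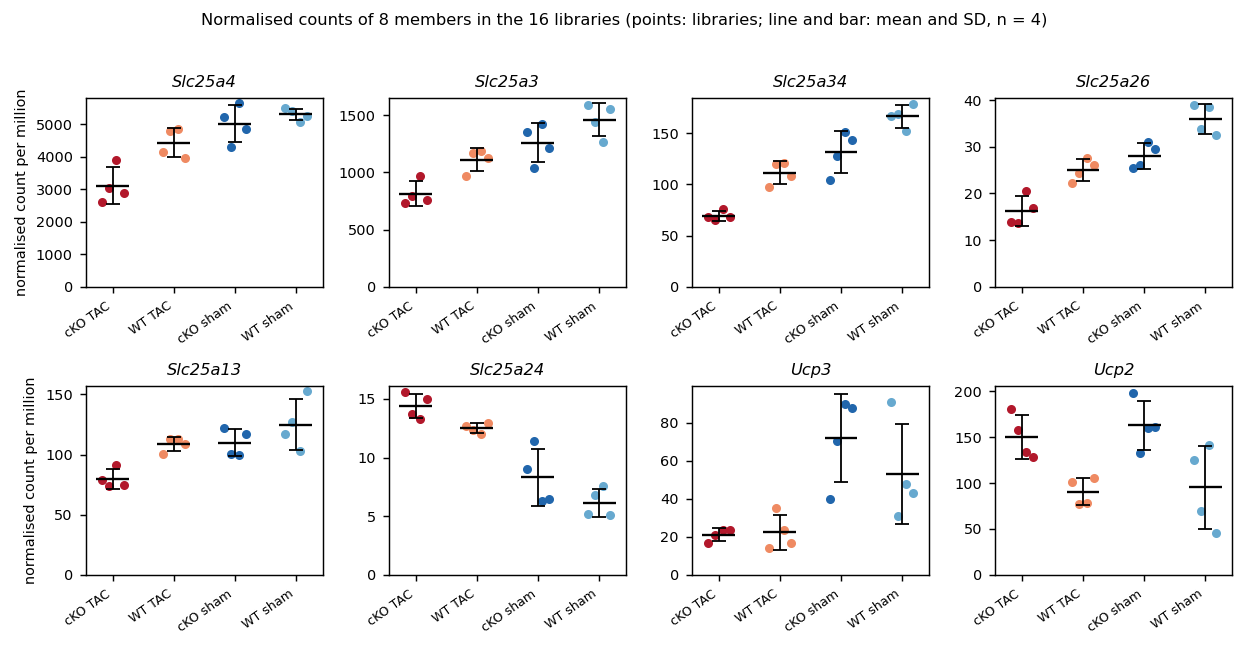
Normalised level in CPM of Slc25a4, Slc25a3, Slc25a34, Slc25a26, Slc25a13, Slc25a24, Ucp3 and Ucp2 in each of the 16 libraries, by group; points are libraries and the line and bar are the mean and SD (n = 4). Slc25a34 had 64.8 to 76.2 CPM in cKO TAC, 97.3 to 121 in WT TAC, 104 to 151 in cKO sham and 152 to 179 in WT sham libraries.

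The same comparison was made in wild-type ventricles. In WT TAC against WT sham, 9 of the 41 members changed (22%), 8 lower and 1 higher, where 15.8% of all genes changed (6.14% lower and 9.7% higher), and the median was -0.20 beside -0.01 over all tested genes. The 9 were all among the members called in cKO ventricles, with the same direction. In 11 members the WT TAC and WT sham libraries did not overlap, 10 lower and 1 higher, where this held for 19.5% of all genes (8.44% lower and 11% higher). Slc25a34 had 97.3, 119.5, 121 and 108 CPM in WT TAC libraries, against 167, 168, 152 and 179 CPM in WT sham libraries, with no overlap (log2 fold change -0.58, SE 0.11, adjusted p = 0.0016). Slc25a24 had 12.7, 12.4, 12.1 and 12.95 CPM in WT TAC libraries, against 5.20, 6.79, 7.54 and 5.10 CPM in WT sham libraries. It again rose in every TAC library (log2 fold change 1.02, SE 0.17, adjusted p = 0.000754), beside fibroblast markers that summed to 1750 to 2802 CPM in WT TAC and 635 to 1062 CPM in WT sham libraries, where 5 of 7 were higher. Slc25a42 had 55.9, 82.9, 63.0 and 61.8 CPM in WT TAC libraries, against 116, 89.7, 102 and 116 CPM in WT sham libraries (log2 fold change -0.68, SE 0.15, adjusted p = 0.00619). Slc25a26 had 22.3, 24.4, 27.6 and 26.1 CPM in WT TAC libraries, against 38.9, 33.8, 38.4 and 32.5 CPM in WT sham libraries (log2 fold change -0.52, SE 0.12, adjusted p = 0.00865). For both cofactor carriers the groups were apart.

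The remaining WT calls were less stable. Slc25a20 had 91.1, 131, 131 and 104 CPM in WT TAC libraries, against 162, 141, 157 and 150.3 CPM in WT sham libraries, without overlap (log2 fold change -0.41, SE 0.12, adjusted p = 0.0219). Slc25a3 had 972, 1165, 1187 and 1124 CPM in WT TAC libraries, against 1588, 1436, 1268 and 1551 CPM in WT sham libraries (log2 fold change -0.39, SE 0.12, adjusted p = 0.0316). Slc25a22 had 39.9, 51.5, 43.1 and 37.9 CPM in WT TAC libraries, against 76.5, 47.3, 54.7 and 60.6 CPM in WT sham libraries, which overlapped (log2 fold change -0.47, SE 0.13, adjusted p = 0.0225). Ucp3 overlapped as well, with 14.2, 34.9, 23.4 and 16.8 CPM in WT TAC libraries and 90.9, 30.8, 47.7 and 43.2 CPM in WT sham libraries (log2 fold change -1.25, SE 0.36, adjusted p = 0.0309). Slc25a46 had 50.2, 57.5, 67.4 and 56.5 CPM in WT TAC libraries and 67.1, 70.6, 72.0 and 69.8 CPM in WT sham libraries (log2 fold change -0.27, SE 0.09, adjusted p = 0.0475). These groups overlapped too. Leaving out single libraries ended all 5 of these calls: Slc25a20 without WT TAC replicate 1 or 4 (adjusted p up to 0.0809), Slc25a22 without WT TAC replicate 1 or 4 or WT sham replicate 1 or 4 (up to 0.0742), Ucp3 without WT TAC replicate 1, 3 or 4 or WT sham replicate 1 (up to 0.101), Slc25a3 without WT TAC replicate 1, 2 or 4 or WT sham replicate 1, 2 or 4 (up to 0.111), and Slc25a46 in all but 3 of 16 such fits (up to 0.163). The count of 9 members was 4 without WT TAC replicate 1 or without WT TAC replicate 4, and 5 without the pair of libraries highest in atrial transcripts. Over all tested genes the count was 2409 with all libraries and 1234 without WT TAC replicate 1.

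The other members named above did not pass in WT ventricles. Slc25a4 had 4155, 4796, 4848 and 3973 CPM in WT TAC libraries, against 5493, 5402, 5072 and 5265 CPM in WT sham libraries, which did not overlap, yet the log2 fold change of -0.26 (SE 0.12) had an adjusted p of 0.164. Slc25a11 and Slc25a12 had log2 fold changes of -0.34 and -0.20 (adjusted p = 0.0865 and 0.148). Slc25a13 stood at -0.20 (adjusted p = 0.238), Slc25a33 at -0.32 (adjusted p = 0.51), Slc25a5 at 0.09 (adjusted p = 0.536), Slc25a32 at -0.03 (adjusted p = 0.896) and Ucp2 at -0.07 (adjusted p = 0.888).

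Whether the response to TAC differed between genotypes was tested as an interaction, the cKO response minus the WT response. No member passed (0 of 41, beside 0% of all genes), with 5 members and 715 genes at an unadjusted p under 0.05, and DESeq2's Wald test called 0 members and 3 genes. Among them were Slc25a5 (difference of -0.33 on the log2 scale, SE 0.12), Slc25a12 (-0.33, SE 0.13), Slc25a4 (-0.43, SE 0.17) and Slc25a34 (-0.35, SE 0.15), each with an adjusted p of 0.946. A call in cKO ventricles without one in WT ventricles is therefore not shown to be a difference between them. Side by side, the 2 sets of fold changes, which share no library, had a Pearson r of 0.848 and a Spearman rho of 0.803 across the 41 members. Genes are not independent replicates and the libraries share one scaling. Of 27 members below 0 in both genotypes, 22 were further below in cKO, and the median of the cKO response minus the WT response was -0.13 for the members, beside 0.00 over all tested genes. Scaled to cardiomyocyte markers these medians became 0.10 and 0.24. The correlations and the count of 22 were not computed over all tested genes, so they are not shown to be particular to the members.

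**Figure D3:**
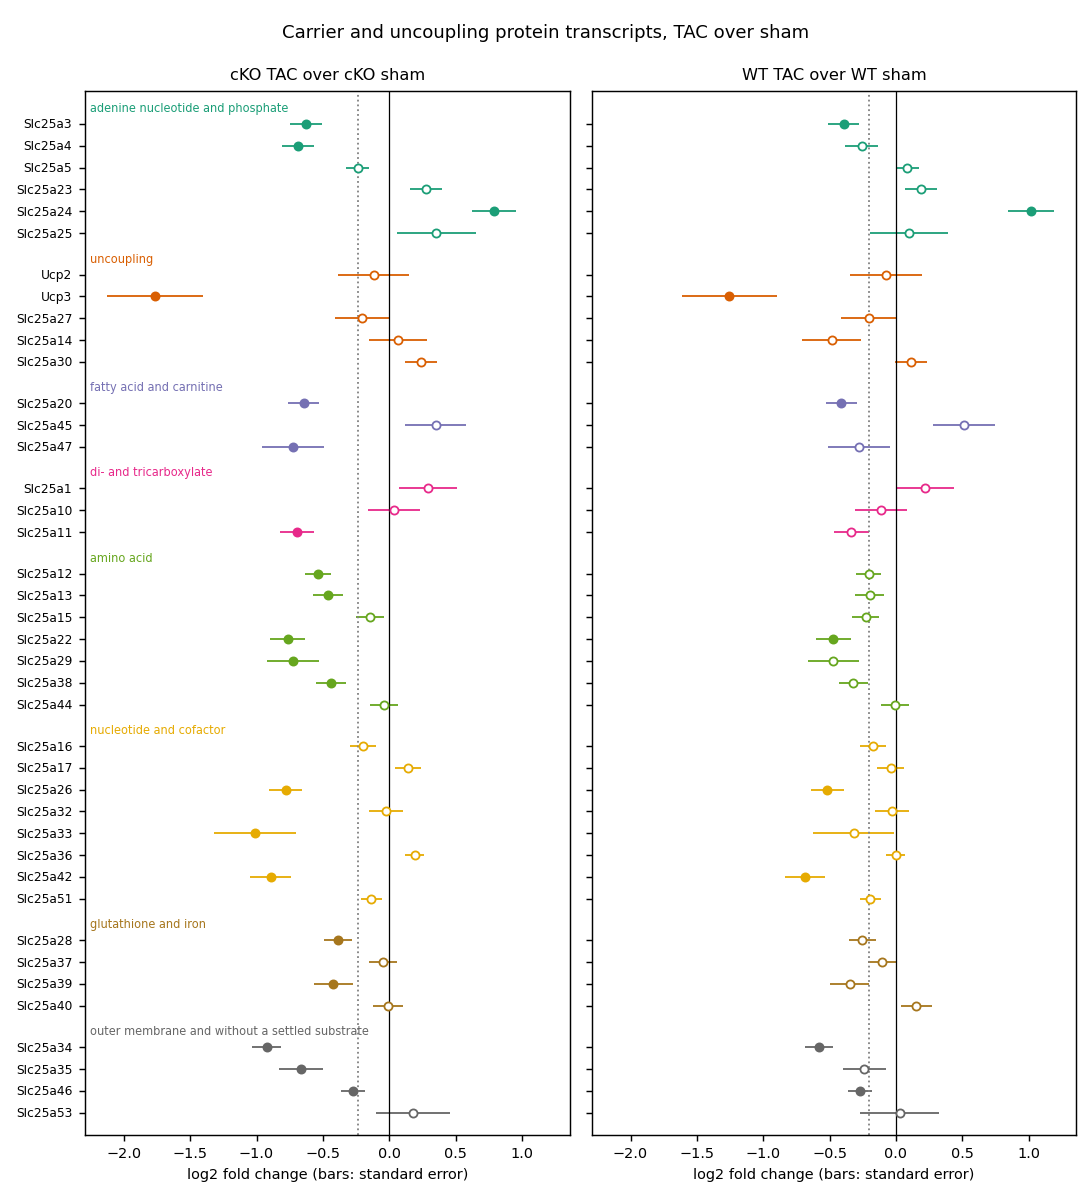
log2 fold change of TAC over sham with its standard error for 40 of the 41 tested members in cKO (left) and WT (right) ventricles, coloured and grouped by transport role; filled points passed an adjusted p of 0.05 (edgeR) and the dotted line is the median of all 41. The 20 filled points on the left and 9 on the right lie below 0, except Slc25a24 at 0.79 and 1.02.

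The promoters of 4 members are shown because these genes mark the patterns above and below: Slc25a34 and Slc25a4, which were lower in cKO TAC hearts against both cKO sham and WT TAC hearts, Slc25a13, which holds a motif of the deleted factor's family, and Slc25a24, the member that rose. Each is the 250 bases before the annotated start, 5′ to 3′ on the gene's strand, from RefSeq (GRCm38.p6): Slc25a34 at chr4:141623835-141624084 (minus strand), Slc25a4 at chr8:46211063-46211312 (minus strand), Slc25a13 at chr6:6217174-6217423 (minus strand) and Slc25a24 at chr3:109122899-109123148 (plus strand). Capitals mark a match, on either strand, to CACGTG (the E-box core that Tfeb and its relatives bind) or AAGGTCA (a half-site of oestrogen-related receptors). The palindromic site of nuclear respiratory factors and the direct repeat of PPAR with RXR were also searched.
Slc25a34: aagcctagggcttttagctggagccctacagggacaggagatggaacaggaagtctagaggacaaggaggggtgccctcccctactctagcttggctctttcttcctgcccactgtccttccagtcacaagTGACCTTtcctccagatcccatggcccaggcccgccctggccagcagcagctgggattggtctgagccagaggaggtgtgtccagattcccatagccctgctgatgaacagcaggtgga
Slc25a4: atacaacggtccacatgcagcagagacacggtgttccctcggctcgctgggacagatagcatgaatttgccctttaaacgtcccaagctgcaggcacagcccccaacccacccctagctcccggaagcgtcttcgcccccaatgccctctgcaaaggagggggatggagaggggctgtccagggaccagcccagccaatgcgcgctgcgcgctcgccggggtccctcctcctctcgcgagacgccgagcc
Slc25a13: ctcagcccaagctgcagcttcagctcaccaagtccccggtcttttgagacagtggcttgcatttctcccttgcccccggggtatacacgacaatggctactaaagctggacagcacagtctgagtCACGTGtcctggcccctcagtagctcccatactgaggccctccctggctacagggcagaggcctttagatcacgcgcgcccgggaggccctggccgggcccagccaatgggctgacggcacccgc
Slc25a24: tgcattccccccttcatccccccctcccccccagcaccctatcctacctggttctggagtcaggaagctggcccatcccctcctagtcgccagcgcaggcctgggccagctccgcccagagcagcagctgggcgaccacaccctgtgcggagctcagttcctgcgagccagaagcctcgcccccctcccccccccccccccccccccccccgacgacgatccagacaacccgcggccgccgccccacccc
The half-site in Slc25a34 begins 119 bases before the start and the E-box core in Slc25a13 begins 125 bases before it, while the Slc25a4 and Slc25a24 windows hold none of the 4 motifs. Of 39 members with a window, 7 hold the E-box core (Slc25a1, Slc25a13, Slc25a14, Slc25a15, Slc25a31, Slc25a33 and Slc25a36) and 1, Slc25a34, holds the AAGGTCA half-site. None holds either of the other motifs. Among all 32851 windows of this length the shares were 6.02% for the E-box core, 4.08% for the half-site, 0.782% for the nuclear respiratory factor site and 0.0335% for the direct repeat. Members were counted by gene and this background by window, so the member counts and these shares are not directly comparable. These are matches of letters only.

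The genotypes were then compared within each surgery. In cKO TAC against WT TAC ventricles, 4 of the 41 members changed (9.76%), all lower, where 1.78% of all genes changed (1.18% lower and 0.598% higher), and the members' median log2 fold change was -0.15 beside 0.00 over all tested genes. These libraries also enter the TAC comparisons above. Slc25a34 had 67.8, 64.8, 76.2 and 67.9 CPM in cKO TAC libraries, against 97.3, 119.5, 121 and 108 CPM in WT TAC libraries, with every cKO library lower (log2 fold change -0.69, SE 0.11, adjusted p = 0.00767). Slc25a26 had 13.9, 13.6, 20.6 and 16.9 CPM in cKO TAC libraries, against 22.3, 24.4, 27.6 and 26.1 CPM in WT TAC libraries, also apart (log2 fold change -0.62, SE 0.13, adjusted p = 0.0225). Slc25a4 had 2617 to 3916 CPM in cKO TAC and 3973 to 4848 CPM in WT TAC libraries (log2 fold change -0.51, SE 0.12, adjusted p = 0.0426). Slc25a13 had 73.8 to 91.5 CPM in cKO TAC and 101 to 113 CPM in WT TAC libraries (log2 fold change -0.45, SE 0.11, adjusted p = 0.0472). In all, 14 members had cKO TAC and WT TAC libraries that did not overlap, 10 lower and 4 higher in cKO TAC, where 10% of all genes did not overlap (5.11% lower and 4.89% higher). Among the other named members, Slc25a3 stood at -0.45 (adjusted p = 0.06), Slc25a12 at -0.36 (adjusted p = 0.0559), Slc25a20 at -0.41 (adjusted p = 0.0734), Slc25a11 at -0.41 (adjusted p = 0.103), Slc25a33 at -0.73 (adjusted p = 0.239), Slc25a5 at -0.12 (adjusted p = 0.533), Slc25a32 at 0.19 (adjusted p = 0.482), Ucp2 at 0.73 (adjusted p = 0.178) and Ucp3 at -0.07 (adjusted p = 0.951).

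The count of 4 depended on single libraries. It was 1 without cKO TAC replicate 1, 2 or 4 or without WT TAC replicate 2 or 3, 2 without cKO sham replicate 1 or 4 or WT sham replicate 2, 9 without WT TAC replicate 1 and 10 without cKO TAC replicate 3. The count over all tested genes moved as well, from 271 with all libraries to between 13 and 912 in the fits that left out 1 library. Slc25a34 passed in all 16 fits that left out 1 library (adjusted p between 0.00276 and 0.0415), whereas Slc25a26 passed in 11 (up to 0.113) and Slc25a4 and Slc25a13 passed in 7 each (both up to 0.159). Some of these fits left out a sham library, which is outside this comparison. Without the pair of libraries highest in atrial transcripts 2 members passed.

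The sham groups show the effect of genotype without pressure overload. In cKO sham against WT sham ventricles no member passed the threshold (0 of 41, edgeR), where 1.17% of all genes did (0.552% lower and 0.618% higher). In 6 members the cKO sham and WT sham libraries did not overlap, 5 lower and 1 higher, where this held for 7.59% of all genes (3.59% lower and 4% higher). At an unadjusted p under 0.05 there were 9 of the 41 members, beside 2284 of all 15206 tested genes. DESeq2's Wald test called 2 members, both lower, and its count over all genes is given further on. The smallest adjusted p belonged to Slc25a15, the ornithine carrier, with 13.2, 12.8, 11.8 and 12.5 CPM in cKO sham libraries and 17.97, 14.0, 15.3 and 18.9 CPM in WT sham libraries (log2 fold change -0.40, SE 0.11, adjusted p = 0.0763). Slc25a34 stood at -0.34 (adjusted p = 0.123), Slc25a3 at -0.22 (adjusted p = 0.415), Slc25a20 at -0.17 (adjusted p = 0.51), Slc25a13 at -0.19 (adjusted p = 0.46), Slc25a4 at -0.08 (adjusted p = 0.816), Slc25a5 at 0.21 (adjusted p = 0.272), Ucp2 at 0.77 (adjusted p = 0.181) and Ucp3 at 0.44 (adjusted p = 0.601). Slc25a11, Slc25a12 and Slc25a33 lay between -0.05 and -0.03, and Slc25a32 at 0.18, with adjusted p-values of 0.543 to 0.971. The members' median was -0.04, beside -0.01 over all genes.

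**Figure D4:**
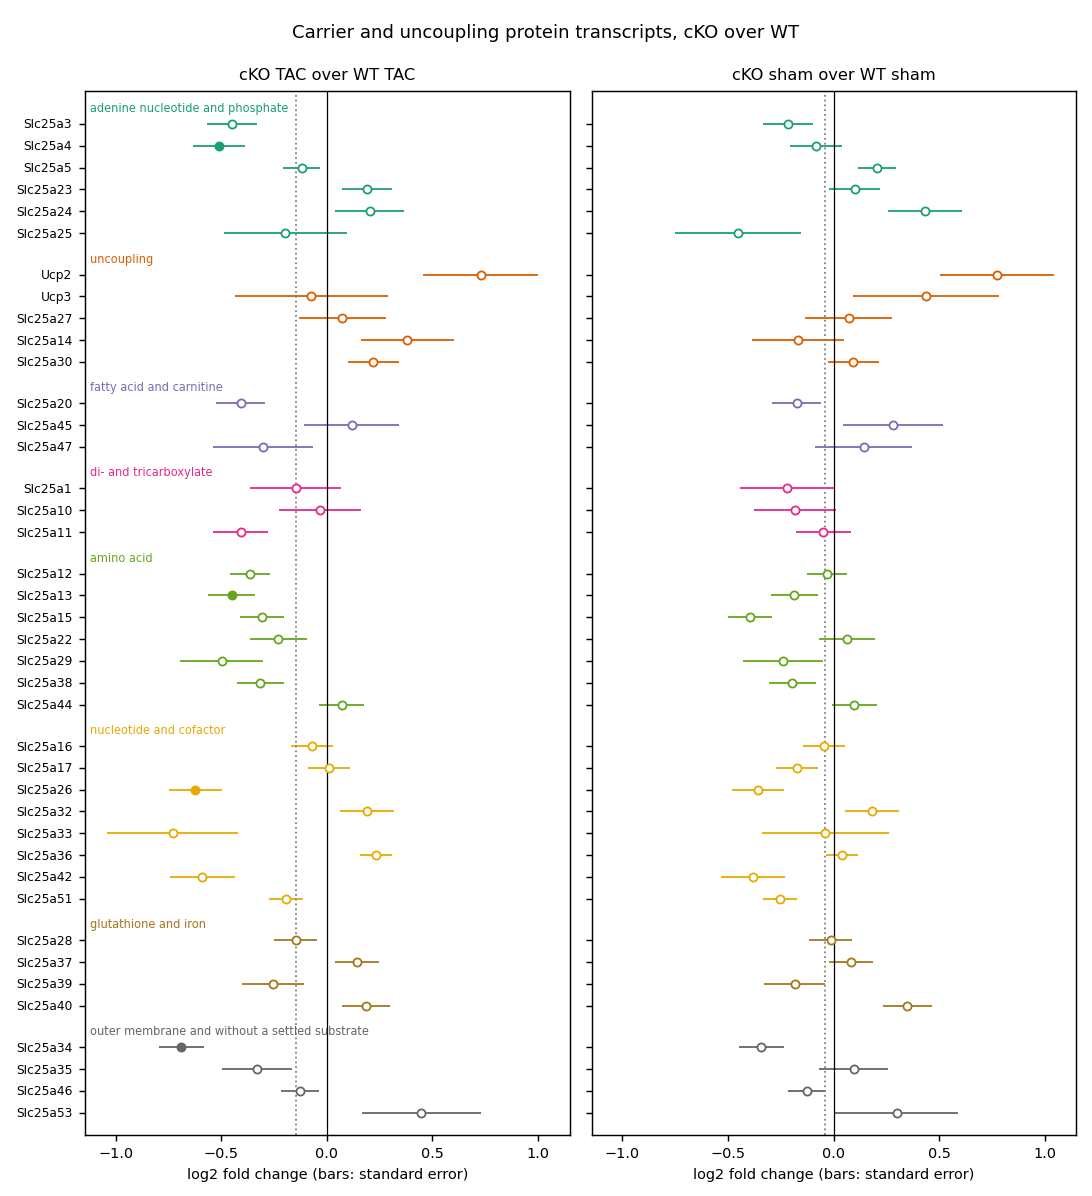
log2 fold change of cKO over WT with its standard error for 40 of the 41 tested members under TAC (left) and sham surgery (right), coloured and grouped by transport role; filled points passed an adjusted p of 0.05 (edgeR) and the dotted line is the median of all 41. Slc25a34, Slc25a26, Slc25a4 and Slc25a13 are filled under TAC, and no point is filled under sham surgery.

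The difference between cKO and WT was also averaged over sham and TAC in the same fit of 16 libraries, a comparison added after the values above were seen. Here 12 of the 41 members changed (29.3%), 10 lower and 2 higher, where 9.06% of all genes changed (4.85% lower and 4.21% higher). The lower ones were Slc25a34 (log2 fold change -0.52, SE 0.08, adjusted p = 0.000695), Slc25a26 (-0.49, adjusted p = 0.00311), Slc25a15 (-0.35, adjusted p = 0.00805), Slc25a42 (-0.49, adjusted p = 0.011), Slc25a13 (-0.32, adjusted p = 0.0183), Slc25a3 (-0.33, adjusted p = 0.0203), Slc25a51, the NAD carrier (-0.22, adjusted p = 0.0203), Slc25a20 (-0.29, adjusted p = 0.0331), Slc25a4 (-0.30, adjusted p = 0.0407) and Slc25a38 (-0.26, adjusted p = 0.0488). Slc25a15, Slc25a26, Slc25a34 and Slc25a51 had all cKO libraries below all WT ones within both surgeries, which held, in either direction, for 1.66% of all genes. Slc25a51 had 63.0, 66.1, 67.4 and 66.3 CPM in cKO TAC libraries, against 74.7, 74.3, 75.1 and 76.8 CPM in WT TAC libraries. It had 82.8, 72.2, 61.0 and 72.8 CPM in cKO sham libraries, against 85.0, 88.8, 84.6 and 85.6 CPM in WT sham libraries.

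Ucp2 was called higher in cKO ventricles in the averaged comparison, though in neither surgery alone. It had 181, 158, 134 and 129 CPM in cKO TAC libraries, against 102, 77.5, 78.4 and 105 CPM in WT TAC libraries, with no overlap. It had 198, 133, 159.7 and 161 CPM in cKO sham libraries, against 125, 69.3, 141 and 46.0 CPM in WT sham libraries, which overlapped. The averaged log2 fold change was 0.75 (SE 0.19, adjusted p = 0.0268). The 8 macrophage and monocyte markers, cells in which Ucp2 is known to be expressed, summed to 398 to 518 CPM in cKO TAC and 293 to 406 CPM in WT TAC libraries, and to 229 to 446 CPM in cKO sham and 171 to 262 CPM in WT sham libraries, with 4 of 8 higher and none lower in the averaged comparison. Their part in the Ucp2 difference was not tested. Slc25a40, the less abundant glutathione carrier, was also higher (log2 fold change 0.27, adjusted p = 0.0455). Without cKO TAC replicate 1 or 2 or WT TAC replicate 2 the count of 12 was 7, all lower, with Ucp2 and Slc25a40 not among them. Over all tested genes the count was 1377 with all libraries and 819 without cKO TAC replicate 2. Slc25a40 passed in 2, Slc25a4 and Slc25a38 in 5, Slc25a20 in 8 and Ucp2 in 12 of the 16 fits that left out 1 library, and the other 7 members passed in all 16. Without the pair of libraries highest in atrial transcripts 10 members passed, and Slc25a38 (adjusted p = 0.0816) and Slc25a40 (adjusted p = 0.0998) did not. Other settings ended further calls: Slc25a13 (adjusted p = 0.176), Slc25a15 (0.173) and Slc25a51 (0.456) did not pass when scaled to cardiomyocyte markers, nor did Slc25a4, Slc25a20 and Slc25a38. With library totals Slc25a51 (0.118), Slc25a20 and Slc25a38 did not pass, and without a filter on low counts Slc25a51 (0.0534), Ucp2, Slc25a38 and Slc25a40 did not.

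Several cardiomyocyte transcripts, though not all, were lower after TAC beside the carriers. In whole tissue fewer cardiomyocytes and less RNA per cardiomyocyte cannot be told apart. Of the 8 cardiomyocyte markers, 5 were lower in cKO TAC against cKO sham (Myh6, Tnnt2, Tnni3, Pln and Myl2), 2 in WT TAC against WT sham (Tnni3 and Pln), and none in either comparison of genotypes within a surgery. Actc1, Ryr2 and Ttn did not pass in cKO TAC against cKO sham, with log2 fold changes of -0.10, -0.16 and 0.02. In WT TAC against WT sham Actc1 stood at 0.22, Ryr2 at -0.27 and Ttn at 0.10, none past the threshold. In the averaged comparison 2 of the 8 were lower in cKO (Tnni3 at -0.57, adjusted p = 0.0222, and Pln at -0.40, adjusted p = 0.0419), 3 of 7 fibroblast markers were higher (Pdgfra, Col1a1 and Col1a2) and 3 atrial transcripts were lower (Myl7, Myl4 and Sln). The part of these cells in the members' averaged differences was not tested. Set against these markers, Slc25a4 had 57.6 to 68.8 CPM per 1000 marker CPM in cKO TAC libraries and 71.5 to 80.1 in cKO sham libraries, which did not overlap, while WT TAC libraries had 69.4 to 79.0 and WT sham libraries 77.5 to 80.3, which did. All members except Slc25a4 together had 49.9 to 60.1 per 1000 in cKO TAC, 53.2 to 56.3 in WT TAC, 54.7 to 56.9 in cKO sham and 56.2 to 62.2 in WT sham libraries. Slc25a34 per 1000 marker CPM was 1.25 to 1.65 in cKO TAC and 1.85 to 1.93 in WT TAC libraries, and 1.47 to 2.18 in cKO sham and 2.35 to 2.72 in WT sham libraries.

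Scaling the libraries to these markers, an alternative chosen after the data were seen, moved the whole distribution. The largest part of the marker sum is Myh6, which was itself lower in cKO TAC against cKO sham. The median log2 fold change of all tested genes became 0.43 in cKO TAC against cKO sham and the members' median 0.19, so that 14 members were called higher and 8 lower, beside 49.2% and 2.24% of all genes. A scaling moves members and other genes alike, so the distance between the medians is set by construction and is no sign of stability. With library totals alone, 5 members were higher and 14 lower, beside 26.4% and 5.77% of all genes. Slc25a34, Slc25a26, Slc25a42, Slc25a22, Slc25a4, Slc25a11 and Ucp3 remained lower under marker scaling, by 0.50, 0.37, 0.48, 0.34, 0.27, 0.28 and 1.36 on the log2 scale, and Slc25a24 remained higher at 1.22. Calls were lost for Slc25a3 (-0.20), Slc25a12 (-0.11), Slc25a13 (-0.034), Slc25a20 (-0.23), Slc25a29 (-0.29), Slc25a33 (-0.61), Slc25a35 (-0.22), Slc25a38 (-0.024) and Slc25a47 (-0.30). In WT TAC against WT sham the median over all genes became 0.17, with 12.4% higher and 1.65% lower, and 4 members remained called, Slc25a24 higher and Slc25a34, Slc25a42 and Ucp3 lower. In cKO TAC against WT TAC it became 0.25, with 1.07% higher and 0.243% lower, and no member passed by edgeR, Slc25a34 having a log2 fold change of -0.44 with an adjusted p of 0.0652 (range over all its alternatives 1.25e-06 to 0.0652).

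**Figure D5:**
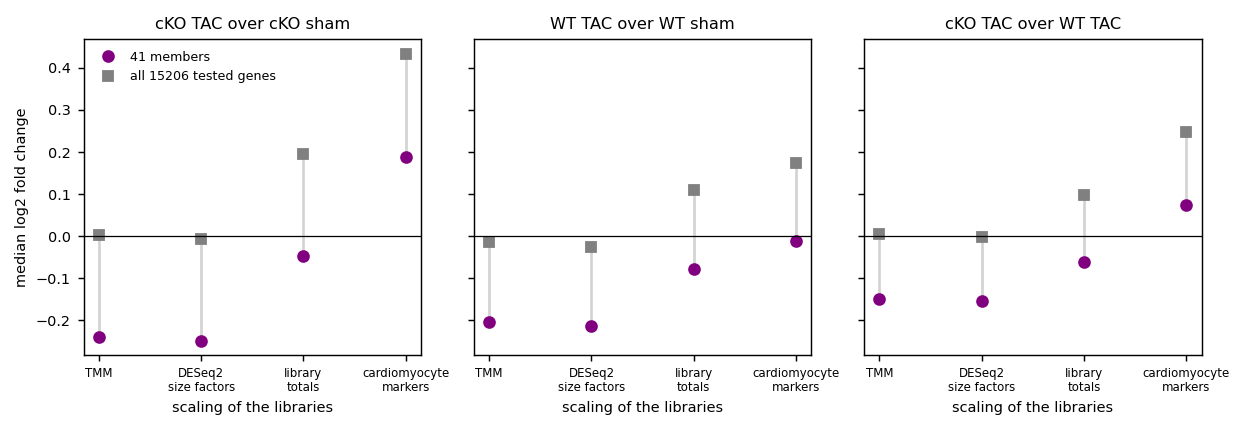
Median log2 fold change of the 41 members (circles) and of all 15206 tested genes (squares) under 4 scalings of the libraries, in cKO TAC over cKO sham, WT TAC over WT sham and cKO TAC over WT TAC. Both medians are higher with library totals and with cardiomyocyte markers than with TMM; the distance between circle and square is nearly constant by construction, since a scaling moves all genes alike.

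Genes that work with the carriers were listed beside them: 13 of carrier import, 19 other mitochondrial transporters and 16 enzymes that use what carriers move, all 48 of them tested. In cKO TAC against cKO sham 2 were higher and 22 lower, where 14.2% of all tested genes were higher and 12.4% lower. The partners' median log2 fold change was -0.28, beside 0.00 over all tested genes. The 4 with the smallest adjusted p were Cpt2, which turns imported acylcarnitines back to acyl-CoA in the matrix (log2 fold change -0.80, adjusted p = 8.23e-05), Got1, the cytosolic enzyme of the malate-aspartate shuttle (-0.68, adjusted p = 0.000153), Crat, the acetylcarnitine enzyme (-0.84, adjusted p = 0.000291), and Vdac3, a pore of the outer membrane (-0.54, adjusted p = 0.000645). By list, 3 of 13 import genes, 9 of 19 transporters and 10 of 16 enzymes fell. In WT TAC against WT sham 2 were higher and 7 lower, beside 9.7% higher and 6.14% lower of all tested genes. They were led by Got1 (-0.45, adjusted p = 0.00558), Cpt2 (-0.48, adjusted p = 0.00567), Vdac3 (-0.39, adjusted p = 0.0111) and Crat (-0.50, adjusted p = 0.0166), and no import gene passed. In cKO TAC against WT TAC 3 were lower, Cpt2 (-0.57, adjusted p = 0.0157), Crat (-0.62, adjusted p = 0.0302) and the pyruvate carrier subunit Mpc2 (-0.61, adjusted p = 0.0287). Of all tested genes 1.18% were lower and 0.598% higher in that comparison. Mthfd2, an enzyme of mitochondrial folate metabolism, was higher there (1.53, adjusted p = 0.0302). It was the only one of the 48 called in cKO sham against WT sham (2.69, adjusted p = 0.00117), beside 1.17% of all tested genes. The folate carrier Slc25a32 did not pass in either of these comparisons.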

How the data were processed

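The authors deposited raw read counts per gene for all 16 libraries; per the submitters' processing notes featureCounts 2.0.6, HISAT2 2.0.5, SAMtools 1.21, fastp 0.22.0 and FastQC were used on GRCm39; strand and multi-mapping settings are not given in the sources used here. Per the labels' protocols, total RNA of left ventricle was sequenced as paired-end libraries (NEBNext Ultra). Symbols and exon lengths were taken from GENCODE M21 (GRCm38), so gene coordinates of the files' build are not printed, and promoters come from RefSeq (GRCm38.p6).

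Counts were filtered with filterByExpr, scaled by TMM and fitted once over 4 group means in edgeR 4.0.16 (R 4.3.3, robust quasi-likelihood, 12 residual degrees of freedom), with p-values adjusted over 15206 genes and a threshold of 0.05. The biological coefficient of variation was 16.5%. The fit was tested on simulated data. DESeq2 1.42.0 served as an alternative, with other scalings, no filter, the compared groups alone, a replicate block and each library left out in turn. The comparison averaged over both surgeries, marker scaling and leaving out the libraries highest in atrial transcripts were added after the data were seen.

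Named were every member past the threshold in a comparison, with full statistics for the 12 smallest adjusted p-values, 11 members in every comparison (Slc25a3, Slc25a4, Slc25a5, Slc25a11, Slc25a12, Slc25a13, Slc25a20, Slc25a32, Slc25a33, Ucp2 and Ucp3), and up to 4 partner genes. One tested member is counted in every total but is not reported here by name. Members and lists were chosen with earlier results of these data known. No pair of libraries of a group agreed within sampling noise (chi-square per degree of freedom 7.48 to 43.8). Intervals and limits cover counting error only.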

Additional observations from a re-analysis of the deposited data

Results flagged for a closer look

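Of 164 groups of 4 libraries looked at (41 members in 4 groups), 5 held a library whose gap to its nearest neighbour as a share of the group's range was above Dixon's limit for 4 samples, where chance gives about 1 in 20. Slc25a39 had 207 CPM in WT sham replicate 1, with the next library at 130.3 CPM, and Slc25a28 had 46.6 CPM in the same library, with the next at 40.9 CPM. That library also had the highest summed level of erythrocyte and reticulocyte markers, 1249 CPM against 326 to 534.5 CPM in the other WT sham libraries, and the part of these cells was not tested. Slc25a37 had 23.3 CPM in WT sham replicate 4, with the next at 20.3 CPM. Slc25a17 had 13.35 CPM in cKO sham replicate 4, the lowest, with the next at 16.2 CPM. Slc25a46 had 74.2 CPM in cKO sham replicate 3, with the next at 61.4 CPM.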

How the results depend on the processing

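Of the alternatives to the 46 called values of members (4 comparisons), 909 of 1092 values kept direction and call, 180 lost the call and 3 reversed. All 46 kept both with DESeq2 size factors and with its Wald test. Among the 1092 are fits that left out a library of a group outside the comparison, which keep every compared library. Scaling to cardiomyocyte markers in cKO TAC against cKO sham reversed Slc25a28 (0.029), Slc25a39 (0.015) and Slc25a46 (0.16), and among values that had not passed Slc25a5 (0.19), Slc25a32 (0.41) and Ucp2 (0.35). It did so in WT TAC against WT sham for Slc25a32 (0.14) and Ucp2 (0.13), in cKO TAC against WT TAC for Slc25a5 (0.12) and Ucp3 (0.18), and in the interaction for Slc25a3 (0.011), Slc25a20 (0.0038) and Ucp2 (0.22). Library totals reversed Slc25a32 (0.17) and Ucp2 (0.081) in cKO TAC against cKO sham, Slc25a32 (0.087) and Ucp2 (0.048) in WT TAC against WT sham, Slc25a33 (0.0035) between sham groups, Ucp3 (0.024) between TAC groups and Ucp2 (0.033) in the interaction. The causes were not tested.

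With marker scaling the counts were 7825 genes in cKO TAC against cKO sham, 4 members in WT TAC against WT sham, 97 genes between sham groups, 0 members between TAC groups (edgeR) and 6 members in the averaged comparison. Library totals gave 5 members in WT TAC against WT sham, 1 higher and 4 lower, beside 14.3% higher and 2.84% lower of all tested genes. DESeq2's Wald test gave 2 members and 546 genes between sham groups, 11 members and 838 genes between TAC groups and 3 genes in the interaction. Without a filter 9 members and 438 genes passed between TAC groups, and the compared groups alone gave 152 genes. WT sham replicate 3 and WT TAC replicate 4 were the pair of libraries highest in atrial transcripts. Without them 5 members passed in WT TAC against WT sham, where Slc25a32 (0.076) and Ucp2 (0.10) reversed. Between TAC groups 2 members and 165 genes passed, and in the interaction 2 genes did, with Slc25a32 reversed at -0.10.

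Leaving out 1 library at a time gave 17 to 23 members and 2720 to 4633 genes in cKO TAC against cKO sham, 4 to 9 and 1234 to 2477 in WT TAC against WT sham, 0 to 1 and 59 to 222 between sham groups, 1 to 10 and 13 to 912 between TAC groups, 0 and 0 in the interaction (edgeR), and 7 to 14 and 819 to 1845 averaged. Values near 0 changed sign: Slc25a32 ran from -0.072 to 0.017 in cKO TAC against cKO sham. In WT TAC against WT sham Slc25a32 ran from -0.15 to 0.042, Ucp2 from -0.30 to 0.18 and Slc25a33 from -0.54 to 0.093 (-0.62 without the atrial pair). Between sham groups Slc25a11 ran from -0.12 to 0.0051, Slc25a12 from -0.097 to 0.037 and Slc25a33 from -0.26 to 0.37, and between TAC groups Ucp3 from -0.24 to 0.21. In the interaction Slc25a32 ran from -0.07 to 0.12 and Ucp2 from -0.30 to 0.18.

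For samples that shared a replicate number, deviations from the group means correlated at r between -0.16 and 0.229 over 24 pairs, 4 over 0.1. The highest were cKO TAC replicate 3 with cKO sham replicate 3 (0.229) and with WT TAC replicate 3 (0.225). A replicate block gave 22 members in cKO TAC against cKO sham, 9 in WT TAC against WT sham, 0 between sham groups (edgeR, 235 genes), 3 between TAC groups, 0 in the interaction and 11 in the averaged comparison. The count over all tested genes with this block is given for the sham groups alone. The other member counts therefore have no background here.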

Other observations

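Nnt, the proton-translocating transhydrogenase of the inner membrane and one of the partner genes, was barely detected. It had 0.758 to 1.81 CPM in cKO TAC, 1.04 to 1.98 in WT TAC, 2.07 to 3.72 in cKO sham and 1.55 to 1.995 in WT sham libraries, the lowest level per kb of the 48 partner genes. As background, the C57BL/6J strain carries a deletion within Nnt that C57BL/6N lacks, and the strain label of all 16 samples was C57/BL6N. Nnt fell in cKO TAC against cKO sham (log2 fold change -1.31, adjusted p = 0.00309, edgeR).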
